A study of Mus musculus with 29 samples.

Results

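The genes described here are 10 transcripts used to mark resident macrophages of tissues, taken by name from the 55292 gene names counted in mouse atria. They are Folr2, Siglec1, Fcgr2b, Cd68, C1qa, C1qb, C1qc, Lyve1, Mrc1 and Cd163. Folr2, Siglec1 and Fcgr2b were chosen by their higher counts with nicotinamide riboside in these same libraries, so every value of the 10 genes in that comparison is a description without a test. The 29 libraries, in 6 groups, hold polyadenylated RNA of atria of male mice. In the diet experiment, control mice (Ctrl) and mice carrying the NaV1.5 transgene, which is named after the cardiac sodium channel, ate a regular diet (RD) or a high-fat diet (HFD). Each of these 4 groups has 4 libraries, except NaV1.5_HFD with 5. In the riboside experiment, every mouse carried the NaV1.5 transgene and ate the high-fat diet, either as vehicle (5 libraries) or with nicotinamide riboside, a precursor of the cofactor NAD (NR, 7 libraries). The high-fat diet lasted 4 weeks and began at 5 weeks of age. The labels do not name the promoter of the transgene, the background strain of the mice or whether each library is a separate mouse, so a p-value measures only the spread between these samples.

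Resident macrophages settle in the heart before birth and early in life and keep themselves partly by local division, apart from the monocytes that enter from blood. They clear dying cells and debris, sample proteins and sugars around them, and lie close to cardiomyocytes and vessels. Folr2, Lyve1, Mrc1, Cd163 and Timd4 are widely used to tell them from recruited macrophages, although Lyve1 is also made by lymphatic endothelium and Mrc1 by some endothelial cells. In RNA of whole tissue, fewer cells of a type and less RNA per cell cannot be told apart.

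Total counts ranged from 13189995 to 33061018 per library, and 14.7 to 26.6% of them came from mitochondrially encoded genes. The atrial markers Myl7 and Nppa stood at 3036 to 12571 and 6692 to 25556 CPM (read counts scaled for library size over all libraries), while the ventricular marker Myl2 ranged from 0.488 to 288 CPM. The labels give a batch number. The diet experiment is in batch 1 except Ctrl_HFD replicate 4, in batch 2, so the batch term absorbs that library and the Ctrl_HFD values of the fits rest on 3 libraries. Batch 3 holds every vehicle library and NR replicates 6 and 7, while NR replicates 1 to 5 belong to batch 2. The fitted NR difference thus sets 2 NR libraries against 5 vehicle libraries. Between the experiments, experiment and batch cannot be told apart.

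C1q is the recognition molecule of the classical complement pathway, and binds antibody complexes and dying cells. Its A, B and C chains are encoded by C1qa, C1qb and C1qc, 3 neighbouring genes on the minus strand of chromosome 4 (GRCm38): C1qb at 136880129 to 136886187, C1qc at 136889804 to 136893065 and C1qa at 136895917 to 136898803. The stretches upstream of the starts of C1qb and C1qc are shown because these genes vary together across libraries, with those of Cd68 and Mrc1, which hold the same short motif, and of Folr2, which does not. They come from RefSeq (GRCm38.p6), 5′ to 3′ on the gene's strand, with annotated exon bases removed, and capitals mark GAGGAA, a core of sites bound by PU.1, the macrophage lineage factor, or its complement TTCCTC.
C1qb, chr4:136886201-136886450, minus strand: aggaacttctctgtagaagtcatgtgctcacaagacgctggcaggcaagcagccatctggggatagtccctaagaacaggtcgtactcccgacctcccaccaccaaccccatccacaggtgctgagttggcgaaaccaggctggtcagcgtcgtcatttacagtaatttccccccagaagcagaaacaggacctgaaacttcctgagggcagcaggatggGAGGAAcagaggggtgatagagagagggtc
C1qc, chr4:136893066-136893164, minus strand: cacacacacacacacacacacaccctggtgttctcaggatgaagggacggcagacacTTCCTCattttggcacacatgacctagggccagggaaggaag
Cd68, chr11:69666171-69666420, minus strand: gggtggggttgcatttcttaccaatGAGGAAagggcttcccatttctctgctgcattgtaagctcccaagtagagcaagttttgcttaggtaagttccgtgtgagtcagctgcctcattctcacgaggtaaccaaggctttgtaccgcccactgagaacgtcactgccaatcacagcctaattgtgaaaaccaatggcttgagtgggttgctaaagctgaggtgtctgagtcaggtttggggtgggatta
Mrc1, chr2:14229164-14229391, plus strand: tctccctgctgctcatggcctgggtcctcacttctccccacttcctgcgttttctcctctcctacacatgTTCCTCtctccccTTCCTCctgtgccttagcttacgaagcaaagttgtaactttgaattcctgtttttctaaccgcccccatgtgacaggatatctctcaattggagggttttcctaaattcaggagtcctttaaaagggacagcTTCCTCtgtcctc
Folr2, chr7:101845332-101845581, minus strand: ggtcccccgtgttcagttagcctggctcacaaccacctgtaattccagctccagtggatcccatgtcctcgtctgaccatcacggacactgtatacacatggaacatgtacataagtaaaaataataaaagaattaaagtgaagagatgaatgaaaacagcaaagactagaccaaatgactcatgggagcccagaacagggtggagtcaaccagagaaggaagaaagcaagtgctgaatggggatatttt
Of the 10 genes, 7 had a window in the RefSeq table, with 8 windows in all because Folr2 has a pair of starts. GAGGAA on either strand was present in 4 of the 8 windows, with 3 matches in that of Mrc1, and in 23.3% of 32851 promoter windows of 250 bases. The MAF half-site TGCTGAC (3.81% of windows), the interferon-stimulated element core (2.98%) and the TATA box TATAAA (12.4%) had 0 matches in the 8 windows, both strands searched. A match is a run of letters and shows no binding.

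The other 7 genes lie apart from each other, all annotated as protein-coding, with spans from the count files (GRCm38). On the minus strand are Folr2 (chromosome 7, 101839988 to 101857194), Lyve1 (chromosome 7, 110850607 to 110863239), Siglec1 (chromosome 2, 131069220 to 131086765), Fcgr2b (chromosome 1, 170958617 to 170976547) and Cd68 (chromosome 11, 69664213 to 69666153). On the plus strand are Mrc1 (chromosome 2, 14229392 to 14332057) and Cd163 (chromosome 6, 124304656 to 124330527).

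Per kilobase of counted length, C1qb and C1qa were the most abundant of the 10 genes in the diet experiment, at 151 and 147 CPM per kilobase, followed by C1qc at 70.8. Cd68, a lysosomal glycoprotein of phagocytes, stood at 19.9 CPM per kilobase and Lyve1, a hyaluronan receptor, at 16.5. The haemoglobin scavenger receptor Cd163 (5.68), the mannose receptor Mrc1 (5.13) and the folate receptor Folr2 (4.74) lay close together. The inhibitory Fc receptor Fcgr2b (2.3) and the sialic acid lectin Siglec1 (0.479) were lowest. Siglec1 therefore rests on few reads in the diet experiment, with 27 to 119 counts per library. In the riboside experiment C1qa (86.9) stood above C1qb (78.7), and Fcgr2b (2.96) and Siglec1 (1.81 CPM per kilobase) were again lowest.

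**Figure D1:**
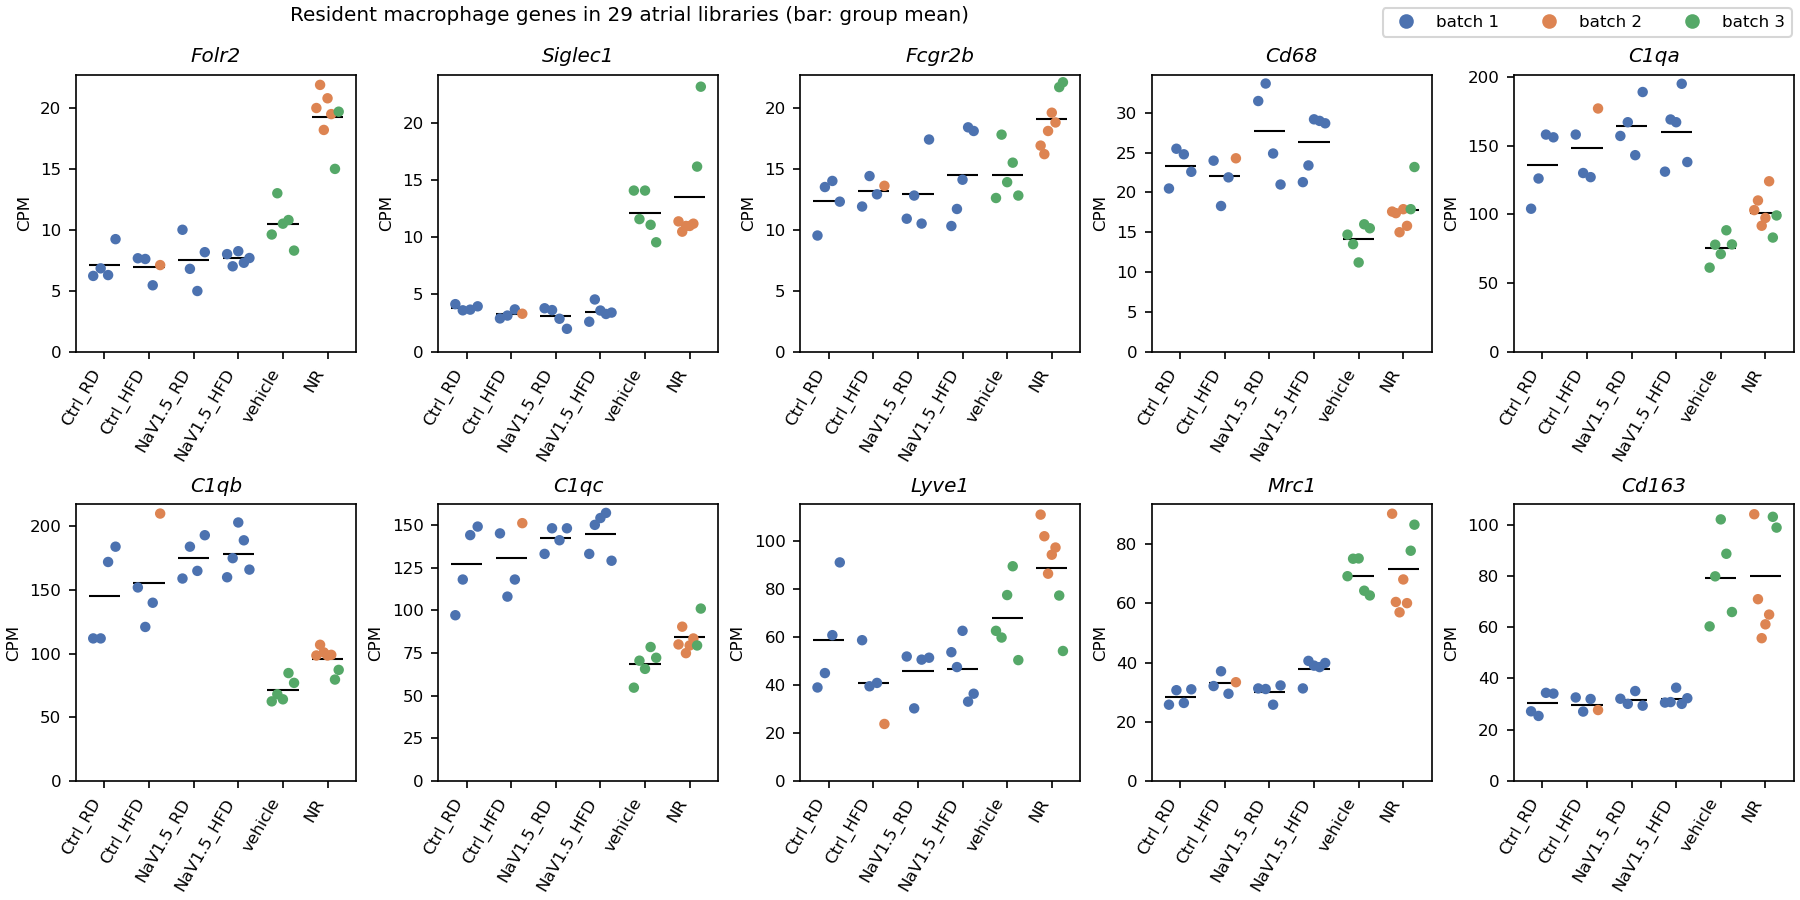
Level of each of the 10 genes (CPM, linear axis from 0) in the 29 libraries by group, with points coloured by labelled batch and a bar at the group mean. The 4 groups of the diet experiment overlap for every gene, except Mrc1 in Ctrl_RD and NaV1.5_HFD, while Siglec1, Mrc1 and Cd163 are higher, and C1qb lower, in every library of the riboside experiment.

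In the diet experiment, of the 10 genes, 0 passed the edgeR test (adjusted p under 0.05) for genotype on regular diet, where 0.0124% of all genes tested were called, and 0 for genotype on high-fat diet, where 0.0866% were. For the diet, 0 passed in NaV1.5 atria, where 1.13% of genes were called, and 0 in control atria, where 0% were called. The interaction of genotype and diet also called 0 of the 10 and 0% of all genes. At an unadjusted p under 0.05, edgeR gave 1 of the 10 for genotype on high-fat diet (C1qb), 1 for diet in NaV1.5 atria (Mrc1), where 8.05% and 18.9% of all genes had one. It gave 0 of the 10 for genotype on regular diet (6.11% of all genes), for diet in controls (8.49%) and for the interaction (2.26%). Nor did any of the 10 have all its levels above the other group's, which 1.69% of genes had in NaV1.5_RD over Ctrl_RD, 1.71% in NaV1.5_HFD over Ctrl_HFD, 2.75% in NaV1.5_HFD over NaV1.5_RD and 3.15% in Ctrl_HFD over Ctrl_RD. A p that misses the threshold does not show equal levels.

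The C1q genes were level across diets and a little higher in NaV1.5 atria, within the spread of the libraries. C1qb was 112, 112, 172 and 184 CPM in the Ctrl_RD libraries and 159, 184, 165 and 193 CPM in NaV1.5_RD. On high-fat diet it was 152, 121, 140 and 210 CPM in Ctrl and 160, 175, 203, 189 and 166 CPM in NaV1.5. The groups overlap on both diets, and the highest control on high-fat diet is replicate 4, the library that the batch term absorbs. The fitted log2 difference of C1qb between NaV1.5 and Ctrl was 0.38 (SE 0.15) on high-fat diet (edgeR adjusted p = 0.512) and 0.28 (SE 0.14) on regular diet (edgeR adjusted p = 0.833).

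Mean C1qa levels in the same order of groups (Ctrl_RD, Ctrl_HFD, NaV1.5_RD, NaV1.5_HFD) were 136 ± 26, 148 ± 23.7, 164 ± 19.1 and 160 ± 26 CPM (SD, n = 4, 4, 4 and 5). C1qc stood at 127 ± 24.3, 131 ± 20.6, 143 ± 7.19 and 145 ± 12.9 CPM. Per kilobase, C1qa made up 39.8 ± 1.92%, C1qb 40.9 ± 2.17% and C1qc 19.3 ± 0.972% of their sum over the 17 diet libraries, and 42.1 ± 1.79, 38.3 ± 2.05 and 19.6 ± 1.75% over the 12 riboside libraries (SD). Within the riboside experiment the C1qc share was 19.6 to 21.1% in vehicle and 17 to 18.7% in NR of batch 2. It was 21.2 and 22.9% in the 2 NR libraries of batch 3, the lower of them next to the highest vehicle library. Such shares were not computed for other genes, and these differences were not tested.

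Mrc1, which binds mannose-rich glycoproteins and collagen fragments, came nearest to a diet difference. Mrc1 was 31.3, 31.1, 25.8 and 32.3 CPM in NaV1.5_RD and 31.3, 40.6, 39, 38.5 and 39.9 CPM in NaV1.5_HFD. In 4 of the 5 high-fat libraries it exceeded every regular-diet library, and replicate 1 was inside the regular-diet range. The log2 difference was 0.32 (SE 0.10; edgeR adjusted p = 0.0924), which does not pass. The gene did pass with DESeq2 (0.33, adjusted p = 0.044), with limma-voom (0.34, adjusted p = 0.0335) and with edgeR without NaV1.5_RD replicate 4.

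In control atria Mrc1 was 25.8, 30.7, 26.4 and 31 CPM on regular diet and 32.1, 37.1, 29.5 and 33.4 CPM on high-fat diet, again overlapping, with a log2 difference of 0.21 (SE 0.11; edgeR adjusted p = 0.621). Every NaV1.5_HFD library lay above every Ctrl_RD library for Mrc1, as for 3.95% of genes, a pairing that differs in genotype and diet and was not tested. The interaction for Mrc1 was 0.12 (SE 0.15; edgeR adjusted p = 1), so the diet difference was not shown to depend on genotype. Mrc1 holds the microRNA gene Mir511, and read pairs over both were not counted. Cd163, which takes up haemoglobin bound to haptoglobin, was the steadiest of the 10 genes, at 31 ± 3.06 CPM (SD, n = 17) with all 17 diet libraries between 25.4 and 36.4 CPM. Its 4 log2 differences for genotype and diet ranged from 0.01 to 0.07.

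Lyve1, which binds hyaluronan, varied most. It was 39, 45, 60.8 and 91.1 CPM in Ctrl_RD and 58.7, 39.5, 40.9 and 23.8 CPM in Ctrl_HFD. In NaV1.5 atria it was 51.9, 30.3, 50.6 and 51.4 CPM on regular diet and 53.7, 47.5, 62.6, 33.1 and 36.4 CPM on high-fat diet. Every group overlaps every other. The log2 difference of Lyve1 between diets was -0.35 (SE 0.29; edgeR adjusted p = 0.747) in controls and was -0.06 without Ctrl_RD replicate 4. The genotype difference on regular diet, -0.36 (SE 0.27; edgeR adjusted p = 0.875), was -0.07 without the same library. Within groups, over 28 libraries, Pearson's r of Lyve1 with lymphatic markers was -0.25 for Reln, -0.13 for Prox1, 0.13 for Flt4, 0.14 for Ccl21a, 0.19 for Mmrn1 and 0.33 for Pdpn. With a few macrophage genes from the other lists it was -0.17 for Cd209f, 0.15 for Adgre1 and 0.34 for Timd4. With the fibroblast marker Dcn it was 0.38, and with the adipocyte marker Plin1 -0.27. With the other genes described here it ranged from -0.20 for Cd68 to 0.56 for Cd163, with 0.46 for C1qb and 0.05 for Mrc1. Whether Lyve1 ran more with any of these cell types was not tested.

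Folr2, a folate receptor displayed on resident macrophages, was 6.21, 6.83, 6.28 and 9.23 CPM in Ctrl_RD, 7.66, 7.6, 5.44 and 7.1 in Ctrl_HFD, 10, 6.79, 4.97 and 8.16 in NaV1.5_RD and 8, 7, 8.24, 7.29 and 7.68 in NaV1.5_HFD. The 4 groups cover the same range, and the genotype difference was 0.08 (SE 0.18; edgeR adjusted p = 0.975) on regular diet and 0.14 (SE 0.19; edgeR adjusted p = 0.929) on high-fat diet. The first changes sign without NaV1.5_RD replicate 1, to -0.11. Siglec1, which binds sialylated cells and particles, was 4.15, 3.61, 3.67 and 3.96 CPM in Ctrl_RD and 3.79, 3.63, 2.87 and 1.99 CPM in NaV1.5_RD. It was 2.9, 3.15, 3.69 and 3.31 CPM in Ctrl_HFD and 2.61, 4.56, 3.59, 3.29 and 3.41 CPM in NaV1.5_HFD. These ranges overlap, and its log2 differences were -0.31 (SE 0.20; edgeR adjusted p = 0.862) for genotype on regular diet and 0.43 (SE 0.29; edgeR adjusted p = 1) for the interaction.

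Fcgr2b, which restrains activating Fc receptors, had group means of 12.3 ± 2.01, 13.2 ± 1.06, 12.9 ± 3.18 and 14.5 ± 3.7 CPM (SD) in Ctrl_RD, Ctrl_HFD, NaV1.5_RD and NaV1.5_HFD. Its ranges overlap throughout, and the genotype difference on high-fat diet was 0.16 (SE 0.20; edgeR adjusted p = 0.918). Cd68 was 20.5, 25.5, 24.8 and 22.6 CPM in Ctrl_RD and 31.5, 33.7, 24.9 and 21 CPM in NaV1.5_RD. On high-fat diet it was 24, 18.3, 21.9 and 24.3 CPM in Ctrl and 21.3, 23.4, 29.2, 29 and 28.7 CPM in NaV1.5. The higher NaV1.5 libraries lie above the controls and the lower ones among them, with log2 differences of 0.26 (SE 0.14; edgeR adjusted p = 0.85) and 0.30 (SE 0.15; edgeR adjusted p = 0.63). Folr2 overlaps Gm10602 and Gm45319, and Fcgr2b overlaps Gm38204, on the opposite strand. Strand was not used in counting, and read pairs falling on several genes were not counted. The overlaps are of whole gene spans, and whether counted exons are shared was not examined.

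**Figure D2:**
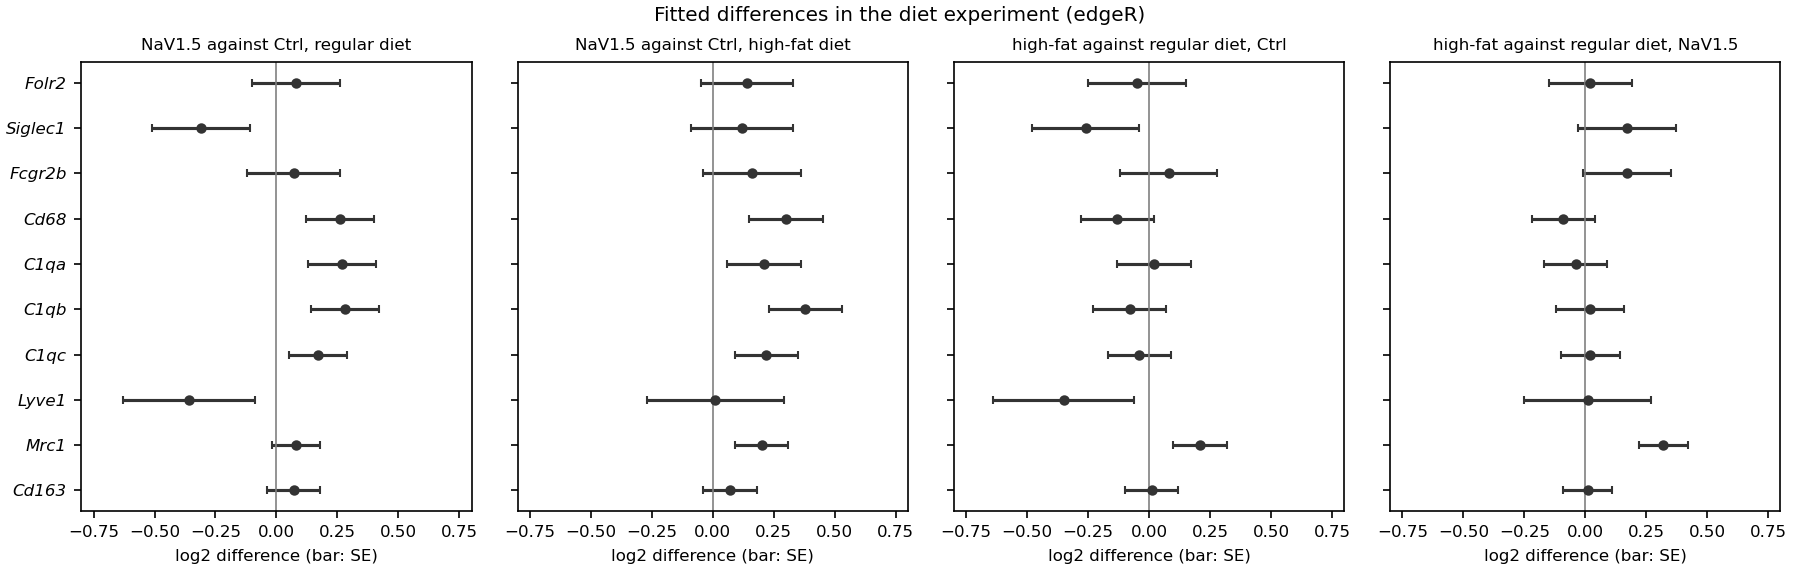
Fitted log2 difference of each of the 10 genes (point) with its SE (bar) in the 4 comparisons of the diet experiment, with 0 marked by a line. All 10 points lie at or above 0 for genotype on high-fat diet, from 0.01 for Lyve1 to 0.38 for C1qb, and none of the 40 passed the edgeR test.

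As a group, the 10 genes had a median log2 difference of 0.18 for genotype on high-fat diet, with 10 of 10 above 0. Over all 16168 genes tested the median was 0.01, with 51.2% above 0. Ctrl_HFD replicate 4, which the batch term absorbs, was the highest Ctrl_HFD library for the C1q chains and Cd68 and the lowest for Lyve1. With it the Ctrl_HFD mean of C1qb was 156 rather than 137 CPM, beside 179 CPM in NaV1.5_HFD. For Lyve1 that mean was 40.7 rather than 46.4 CPM, beside 46.7 CPM. The median of the 10 genes was 0.08 on regular diet, with 8 of 10 above 0, beside 51.4% of all genes. For the diet it was 0.02 in NaV1.5 and -0.04 in control atria. These genes share cells and libraries and are not independent of each other. Across all genes the genotype difference ran weakly with counted gene length (rho = -0.24 on regular and -0.10 on high-fat diet). Over the 10 genes rho was -0.75 and -0.59. The C1q chains and Cd68, all of 1931 bases or fewer, had the highest differences. Folr2, at 1546 bases shorter than C1qc, stood at 0.08 on regular and 0.14 on high-fat diet. With offsets for gene length, C1qb stood at 0.33 and Cd68 at 0.26 on high-fat diet, and both at 0.18 on regular diet.

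Other macrophage genes were counted in the same comparison of NaV1.5 and Ctrl on high-fat diet. Of 14 pan-macrophage genes, 0 passed with edgeR, 6 had an unadjusted p under 0.05 and 14 lay above 0, with a median of 0.37. Over all genes 8.05% had such a p. Without the batch term, so that Ctrl_HFD replicate 4 enters, 1 had such a p and 12 lay above 0, with a median of 0.22. The lowest p belonged to the integrin Itgam at 0.41 (SE 0.16; edgeR adjusted p = 0.512). The 6 unadjusted calls became 1 without Ctrl_HFD replicate 2, NaV1.5_HFD replicate 2 or NaV1.5_HFD replicate 4, and 2 without Ctrl_HFD replicate 3 or NaV1.5_HFD replicate 3. They became 8 without NaV1.5_HFD replicate 1 or replicate 5, and were 5 or 6 without any other library. Of 19 measured genes of a longer resident macrophage list, 0 passed and 18 lay above 0, with a median of 0.27, and the smallest p was that of the scavenger receptor Stab1 at 0.37 (SE 0.10; edgeR adjusted p = 0.26). Among 9 lipid-associated macrophage genes 1 fell, the galectin Lgals3, at -0.74 (SE 0.13; edgeR adjusted p = 0.0269). That call was lost without any 1 of 6 libraries, Ctrl_HFD replicates 1 and 3 and NaV1.5_HFD replicates 2 to 5, with adjusted p from 0.0518 to 0.21.

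Of the neutrophil and erythroid markers 0 passed in the same comparison. At an unadjusted p under 0.05, 3 of 4 measured neutrophil and 4 of 5 erythroid markers were higher, where 8.05% of all genes had such a p. Summed neutrophil markers were 5.66 to 8.73 CPM in Ctrl_HFD and 6.3 to 17.2 CPM in NaV1.5_HFD (4 of 6 measured in the fit, median log2 difference 1.13). Summed erythroid markers were 611 to 849 CPM and 931 to 3124 CPM (5 of 5, median 1.59), with no marker at 0 in either group for both lists. Their part in the macrophage values was not tested.

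In the riboside experiment, the picked genes had higher fitted levels with nicotinamide riboside, the rise by which they were picked. The batches of the NR libraries differed in which genes were high, and Siglec1 was above vehicle in batch 3 only. Folr2 was 9.61, 13, 10.5, 10.8 and 8.29 CPM in vehicle. It was 15 and 19.7 CPM in the NR libraries of batch 3 and 20, 21.9, 18.2, 20.8 and 19.5 CPM in those of batch 2. All 7 NR libraries lay above all 5 vehicle libraries, in both batches. The fitted difference of Folr2 was 0.75 on the log2 scale, a 1.69-fold higher level.

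Siglec1 was 14.1, 11.6, 14.1, 11.1 and 9.57 CPM in vehicle and 16.2 and 23.2 CPM in NR of batch 3. In NR of batch 2 it was 11.4, 10.5, 11, 11 and 11.2 CPM, within the vehicle range. Its fitted difference of 0.73 (1.66-fold) therefore comes from 2 libraries, and the 5 NR libraries of batch 2, which differ from vehicle in batch as well, gave -0.15 against it. Fcgr2b was 12.6, 17.8, 13.9, 15.5 and 12.8 CPM in vehicle, 21.7 and 22.1 CPM in NR of batch 3, and 16.9, 16.2, 18.1, 19.6 and 18.8 CPM in NR of batch 2. Both batches were high for Fcgr2b, though batch 2 overlapped the highest vehicle library. The fitted difference was 0.61 (1.53-fold), or 0.28 from batch 2 alone.

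**Figure D3:**
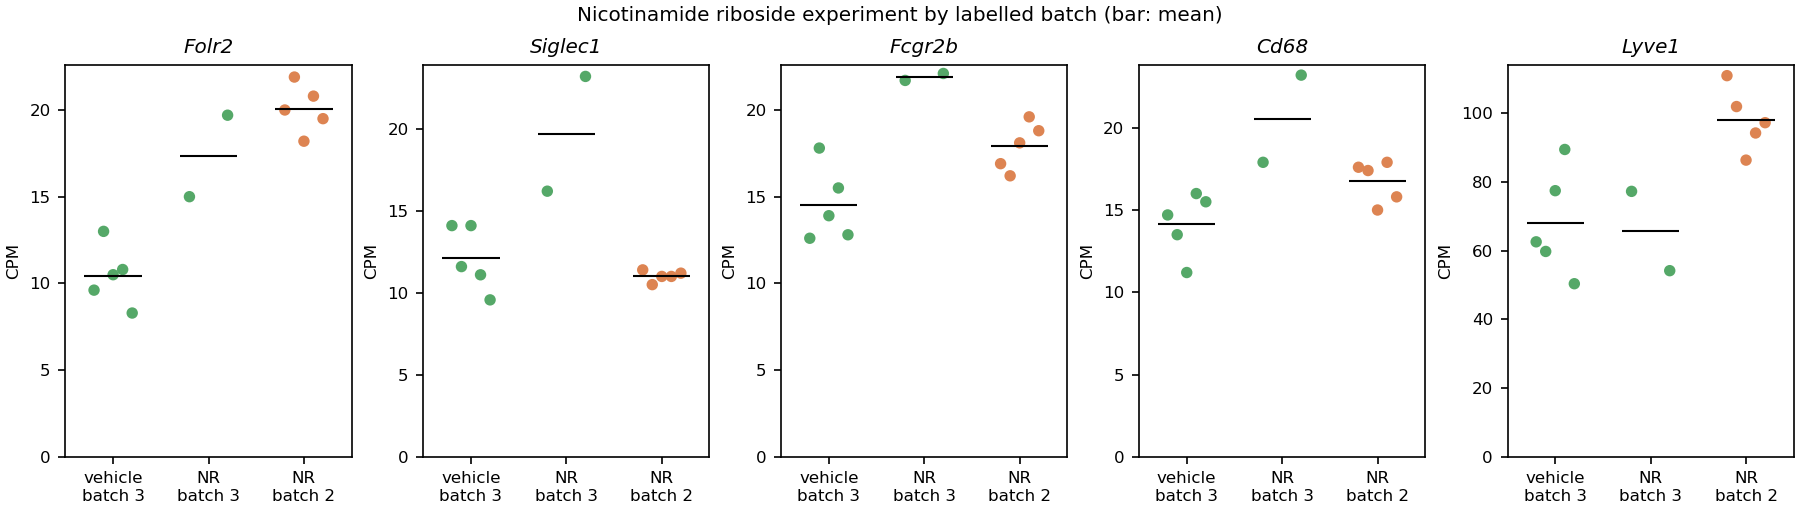
Levels of 5 of the genes (CPM, linear axis from 0) in vehicle, in the 2 NR libraries of batch 3 and in the 5 NR libraries of batch 2, with a bar at each mean. Folr2 is above vehicle in both batches, while Siglec1 is above vehicle in batch 3 only and Lyve1 has its highest levels in batch 2.

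The other 7 genes had fitted differences of 0.56 (Cd68), 0.42 (C1qc), 0.37 (Cd163), 0.30 (C1qa), 0.27 (Mrc1), 0.25 (C1qb) and -0.03 (Lyve1). C1qb was 62.6, 68.2, 64.2, 84.8 and 77.1 CPM in vehicle, 79.7 and 87.3 CPM in NR of batch 3, and 98.6, 107, 101, 98.6 and 99.1 CPM in NR of batch 2. The batch 2 libraries lie above vehicle and those of batch 3 overlap it. Lyve1 was 62.6, 59.8, 77.5, 89.5 and 50.4 CPM in vehicle, 77.3 and 54.2 CPM in NR of batch 3 and 86.4 to 111 CPM in NR of batch 2. Only the batch 2 libraries were high, and 1 of them lay within the vehicle range.

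Cd163 was 60.3 to 102 CPM in vehicle, 103 and 98.8 CPM in NR of batch 3 and 55.7 to 104 CPM in NR of batch 2. Mrc1 was 62.7 to 75.2 CPM in vehicle, 77.8 and 86.6 CPM in NR of batch 3 and 57 to 90.3 CPM in NR of batch 2. For both, NR replicate 1 was the highest library of batch 2 and the other 4 lay at or below 70.9 CPM. Within batch 3, 6 of the 10 genes had both NR libraries above every vehicle library (Folr2, Siglec1, Fcgr2b, Cd68, C1qc and Mrc1), where 4.87% of all genes did, and 3 of these 6 had been picked for it. None lay wholly below vehicle, where 9.11% of all genes did. Of NR in batch 2, 3 of the 10 lay wholly above vehicle (Folr2, C1qa and C1qb), where 23% of all genes did, and 0 wholly below, where 22.5% did.

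In all, edgeR called 70 of 16482 genes between NR and vehicle (0.425%), 14 of them higher (0.0849%). NR replicate 7 carried much of this. Without it the comparison called 1 gene, and the fitted differences were 0.54 for Folr2, 0.43 for Siglec1, 0.35 for Cd68, 0.23 for C1qc, 0.16 for C1qa, 0.18 for Mrc1 and 0.20 for Lyve1. Without NR replicate 6 they were 0.98 for Siglec1 and 0.95 for Folr2. Siglec1, at 23.2 CPM in replicate 7, was higher there than in any other library.

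Genes outside the 10 were tested in the same fit. Of 14 measured complement genes 1 rose, Serping1, the inhibitor of the first complement proteases, at 0.53 (SE 0.10; edgeR adjusted p = 0.037). Its call was lost in 6 of the 12 fits that each left out a library, namely without vehicle replicates 1, 2, 3 or 5 or NR replicates 2 or 7, and its adjusted p was 0.615 without NR replicate 7. Of 19 measured genes of the longer resident macrophage list 0 passed with edgeR, 12 had an unadjusted p under 0.05, all higher, and 18 lay above 0. Over all genes 11.1% had such a p, 708 higher and 1121 lower. The median of the 19 was 0.44, beside -0.01 over all genes. That of the 10 genes, 0.39, includes the 3 picked for their rise in this comparison and is a description only. DESeq2 called 2 of the 19. The lowest p was that of the lectin Clec10a, at 0.89 (SE 0.20; edgeR adjusted p = 0.0632). Without NR replicate 7 the median of the 19 was 0.20, and 3 rather than 12 had an unadjusted p under 0.05. Of 14 pan-macrophage genes 0 passed, 2 had an unadjusted p under 0.05, and the median was 0.20.

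Summed levels of markers of other cell types are given beside these values. Summed white adipocyte markers were 0.197 to 5.67 CPM in vehicle, 0.699 and 14.1 CPM in NR of batch 3 and 1.75 to 51.8 CPM in NR of batch 2 (5 of 6 measured in the fit, median log2 difference 2.45). Summed lymphatic markers were 102 to 151 CPM in vehicle, 126 and 131 CPM in NR of batch 3 and 218 to 281 CPM in NR of batch 2. The markers of this list did not move alike. Pdpn was 12 to 19.4 CPM in vehicle and 41.5 to 64.5 CPM in NR of batch 2. Prox1 was 41 to 66.6 CPM in vehicle and 32.6 to 40.7 CPM in NR of batch 2. Summed ventricular cardiomyocyte markers were 474 to 625 CPM in vehicle, 477 and 879 CPM in NR of batch 3 and 184 to 434 CPM in NR of batch 2. Of the 5 ventricular markers, 1 was at 0 in every vehicle library. Myl2 of this list instead ranged from 0.488 to 6.73 CPM in vehicle and from 4.84 to 136 CPM in NR of batch 2. Mesothelial markers summed to 272 to 376 CPM in vehicle, 260 and 528 CPM in NR of batch 3 and 1166 to 1725 CPM in NR of batch 2. Erythroid markers summed to 1073 to 1644, 1364 and 1763, and 2234 to 4948 CPM in the same order. Atrial cardiomyocyte markers summed to 26565 to 34303 CPM in vehicle, 26440 and 32788 CPM in NR of batch 3 and 18186 to 22324 CPM in NR of batch 2. Sums of fibroblast, vascular, mast, T, B and dendritic cell markers were higher in every NR library of batch 2 than in every vehicle library, while those of the NR libraries of batch 3 overlapped vehicle. Their part in the values of the 10 genes was not tested.

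The experiments also differed from each other in the NaV1.5_HFD and vehicle groups, which share genotype and diet. Siglec1 was 3.47-fold higher in vehicle than in NaV1.5_HFD, Cd163 2.47-fold, Mrc1 1.83-fold, Lyve1 1.46-fold and Folr2 1.36-fold. C1qb was 2.5-fold lower in vehicle, C1qa 2.13-fold, C1qc 2.12-fold and Cd68 1.86-fold, while Fcgr2b stood at 14.5 CPM in both. Siglec1, Mrc1 and Cd163 lay higher in all 12 riboside libraries than in all 17 diet libraries, as did 15.2% of all genes, and C1qb lay lower, as did 14.4%. The log2 difference between the groups ran with counted gene length across all 17725 genes compared (rho = 0.50) and across the 10 genes (rho = 0.84). Its median was -0.82 for genes of up to 1500 bases and 0.36 for genes of 5000 to 8000 bases. These are correlations across genes, which are not replicates. Levels of these genes are therefore not compared between the experiments as a response to either treatment.

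**Figure D4:**
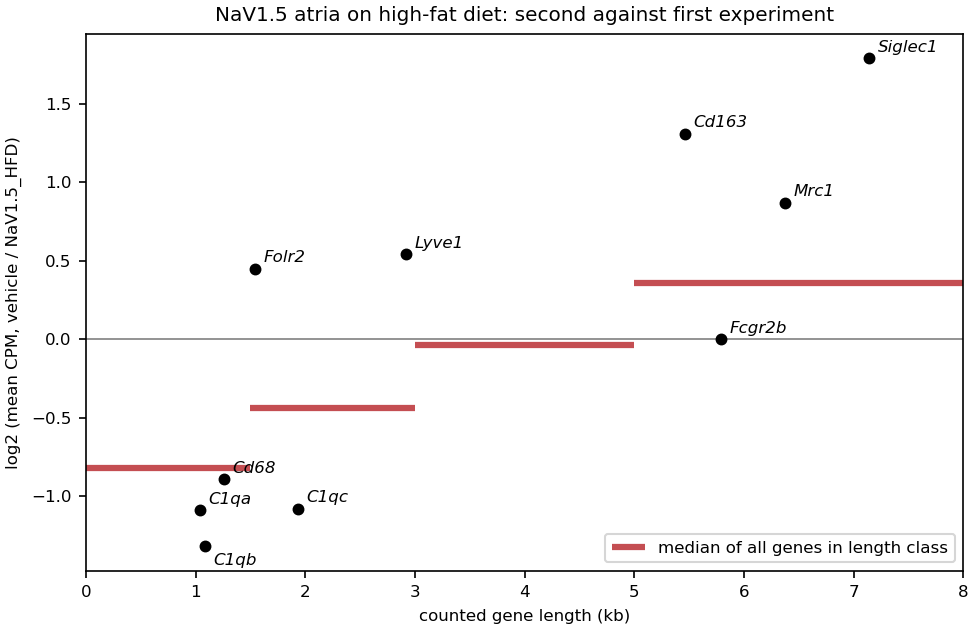
Log2 ratio of mean CPM in vehicle over NaV1.5_HFD for the 10 genes against counted gene length in kilobases, with red bars at the median of all genes in 4 length classes. The short C1q genes and Cd68 lie below 0, the long Siglec1, Cd163 and Mrc1 above it, and Fcgr2b at 0. Folr2 (1546 bases, shorter than C1qc) and Lyve1 (2919 bases) also lie above 0, at 0.45 and 0.54.

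Across the 28 libraries used, with the mean of each group and batch removed, the C1q chains varied together most closely. Over 28 libraries Pearson's r was 0.88 for C1qa and C1qc, 0.85 for C1qb and C1qc and 0.77 for C1qa and C1qb. The next highest was 0.56, for Lyve1 and Cd163. The median over the 45 pairs was 0.27, and the lowest was -0.26, for Siglec1 and Fcgr2b. An r above 0.5 was found in 4 of the 45 pairs over the 28 libraries. It was found in 12 pairs over 16 diet libraries and in 7 over 12 riboside libraries. Siglec1 had a mean r of -0.01 with the other 9 genes. These values are descriptions: the points share library depth and, in this tissue, the same cells.

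**Figure D5:**
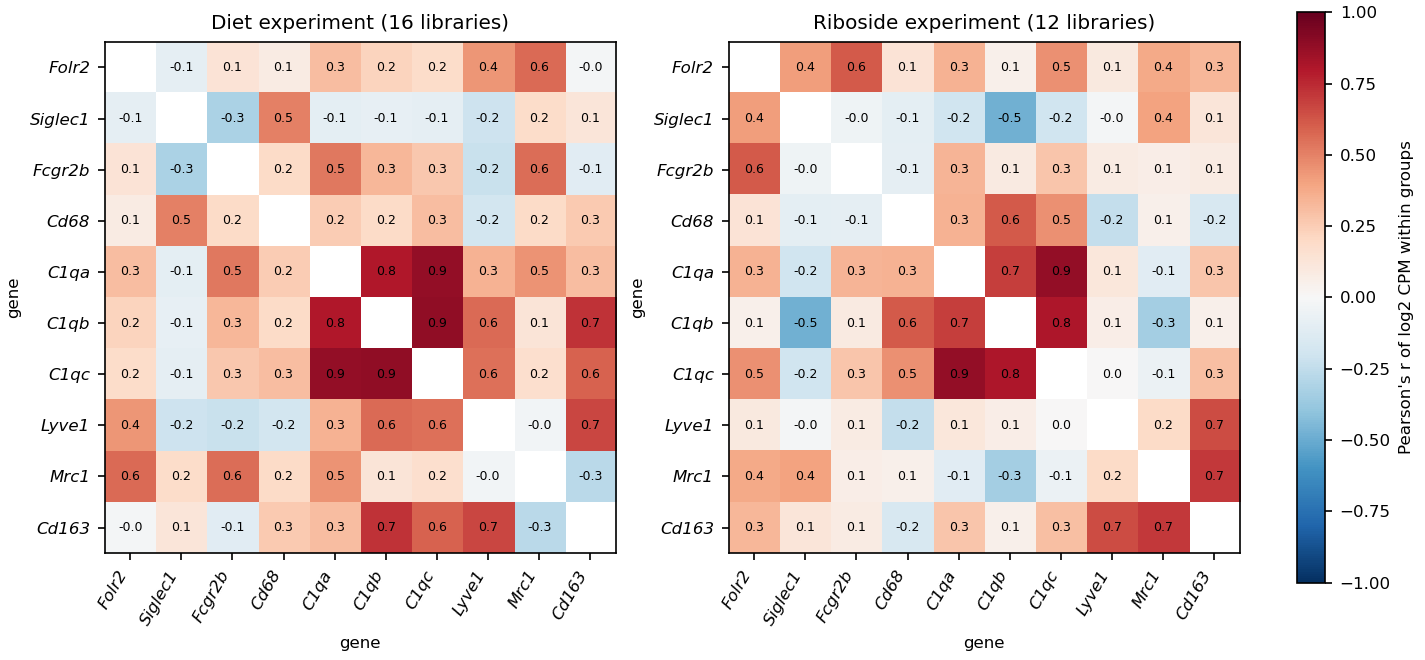
Pearson's r between each pair of the 10 genes (log2 CPM, group and batch means removed), coloured from -1 (blue) to 1 (red), in 16 diet libraries and 12 riboside libraries. The block of C1q chains is dark red in both, and Lyve1 with Cd163 is at 0.67 and 0.65.

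Some pairs depended on the experiment. Cd163 and C1qb had an r of 0.72 in the diet libraries, and Mrc1 and Cd163 had 0.71 in the riboside libraries, where Siglec1 and C1qb had -0.48. The difference between the experiments was not tested. Among all genes kept, those with the highest mean r to the 10 over 28 libraries were C3ar1 (0.45), which encodes the receptor for complement fragment C3a, Ctps2 (0.42), Zfp382 (0.41), Nectin4 (0.40) and Ifngr1 (0.40), the receptor chain for interferon gamma. Arpc1b, Ms4a6d, Gsdmd and Ms4a6c followed at 0.39 each, and Ppib at 0.38. C3ar1 was the gene ranked 23 in the diet libraries and 5 in the riboside libraries, while Ms4a6d was 1 and 3804.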

How the data were processed

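RNA of 29 atrial libraries was compared in 6 groups taken from the labels. Per the labels' protocols, RNA came from a miRNeasy micro kit and libraries from a stranded, poly-A selected TruSeq preparation. The deposited files hold counts, not normalised, of read pairs for each gene name. The authors counted with featureCounts 2.0.1 on a GENCODE annotation of GRCm38, per the file headers. The submitters' processing notes also name FastQC 0.11.7 and STAR 2.7.6a. Per the headers, strand was not used, and pairs with several places or genes were not counted. No pair of files was identical.

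Each experiment was fitted with edgeR 4.0.16 in R 4.3.3 (filterByExpr, TMM, robust quasi-likelihood F-test, group and batch as terms, 2-sided, Benjamini-Hochberg over all genes kept, threshold 0.05), and all 10 genes passed the filter in both fits. The SE was obtained from F (size of the log2 difference over the root of F). The fits were tested on simulated data. Levels are CPM with TMM over all libraries. Correlations are of log2 CPM (prior count 2), and the 1 library alone in its group and batch was left out. Summed marker lists add CPM. Named genes are the 10, up to 4 genes of a list that passed or else 1 or 2 with the smallest p, and the 10 most alike genes. Genes, lists and tests were chosen with earlier results of these data known. Alternatives were DESeq2 1.42.0, limma-voom (limma 3.58.1), other scaling, filters and batch terms, each library left out, a replicate block and, added after seeing the data, offsets for gene length.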

Additional observations from a re-analysis of the deposited data

Results flagged for a closer look

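In 3 of 60 combinations of gene and group, the highest or lowest library stood apart from the others by Dixon's criterion, which chance alone meets in about 1 of 20 groups. Cd68 was 23.2 CPM in NR replicate 7 and 15 to 17.9 CPM in the other 6 NR libraries. Lyve1 was 30.3 CPM in NaV1.5_RD replicate 2, where the other 3 libraries lay between 50.6 and 51.9 CPM. Mrc1 was 31.3 CPM in NaV1.5_HFD replicate 1 and 38.5 to 40.6 CPM in the other 4 libraries. The causes were not tested.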

How the results depend on the processing

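The count of the 10 genes called stayed at 0 for genotype on either diet, diet in controls and the interaction under all alternatives run. For diet in NaV1.5 atria it was 1 (Mrc1) with DESeq2 and 1 with limma-voom, and 0 to 1 over fits that each left out a library. Genes called between NR and vehicle, 70 in all, numbered 140 with no low-count filter, 4392 without the batch term, 35 with length offsets, 237 with DESeq2, 27 with all 29 libraries in one fit, 18 with NR of batch 3 alone, 9851 with NR of batch 2 alone and 1 to 66 with a library left out. Without the batch term, or with batch 2 alone, the batches enter the difference. The median of the 10 genes between NR and vehicle, which includes the picked genes, ranged from 0.29 to 0.51 with a library left out.

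Same-numbered libraries deviated little together from their group means (r from -0.11 to 0.14 over 17 pairs, 4 above 0.1), and the main fits do not pair them. In NR these deviations include the batches. Such correlations cannot show that no pairing exists. With the replicate number as a block, Folr2 was -0.10 and Fcgr2b -0.06 for genotype on regular diet, and Fcgr2b -0.04 on high-fat diet. For NR a replicate block could not be estimated with batch. Fitted without batch it called 9694 genes and gave -0.13 for Siglec1, which was -0.15 with NR of batch 2 alone.

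Signs also changed for differences near 0. Lyve1 for genotype on high-fat diet was -0.00022 with length offsets and -0.12 to 0.21 with a library left out. Under the same omission the ranges were -0.11 to 0.23 for Folr2 and -0.11 to 0.14 for Fcgr2b on regular diet, and -0.0042 to 0.21 for Folr2 and -0.0023 to 0.21 for Siglec1 on high-fat diet. The causes were not tested.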
